A study of Oryza sativa with 4 samples.

Results

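The transcripts with the brightest array signals in rice leaves were taken as the probe sets, without control and reporter sets, whose signal was 20000 or more on all 4 arrays of the series. A probe set is a group of short probes against a transcript, read here as 1 linear signal. This rule kept 194 of 57194 probe sets, or 0.339%. Members were thus chosen by the signals themselves, so the levels given here are a description and carry no test. It also bounded the differences. With all signals at 20000 or more and the highest at 54000.5, no member could differ by more than 2.70-fold between arrays.

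The study compared the hd1–3 mutant, in which the flowering time gene Hd1 carries deletions and insertions, with its wild type Zhonghua11, a japonica rice cultivar. Leaves of 35-day-old plants grown at 28 °C were measured on 1 Affymetrix Rice Genome Array per group. SD condition meant days of 11.5 h light and 12.5 h dark, with leaves of hd1–3 and wild type collected 3 h after the lights came on. LD condition meant 15 h light and 9 h dark, with collection at 5 h, again in hd1–3 and wild type. Day length and time after light therefore cannot be told apart, and a fold between 2 single arrays has no replicate check. How many plants went into an array is not stated in these sources.

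A green leaf cell spends much of its messenger RNA on photosynthesis. Chlorophyll a/b-binding proteins of the antenna gather light, the thylakoid complexes and their mobile carriers plastocyanin and ferredoxin move electrons, and the Calvin cycle fixes carbon dioxide with Rubisco, which needs Rubisco activase to stay active. Photorespiration then recovers the carbon lost when Rubisco takes up oxygen, and the ammonia it sets free is captured again by glutamine synthetase and ferredoxin-dependent glutamate synthase. Metallothioneins, small cysteine-rich proteins that bind metal ions, aquaporins, which let water through membranes, and elongation factors are also encoded by abundant messages in plant tissues.

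On each array the deposited signals had a mean of 500 once the outer 2% at both ends were dropped. The 194 probe sets held 13.8% and 13.3% of the summed signal of the hd1–3 and wild type arrays under SD condition, and 12.8% and 12.6% of that of the hd1–3 and wild type arrays under LD condition. At 20000 or more were 298 probe sets in hd1–3 and 313 in wild type on the SD arrays, and 241 in hd1–3 and 236 in wild type on the LD arrays. In all, 367 probe sets reached 20000 on at least 1 array, and 173 of them missed it on another. A signal depends on how well the probes bind, so signals of different probe sets are not on a common scale. As to tissue, the antenna genes and Rubisco activase gave signals of 28570.4 or more on every array. Probe sets of the Rubisco small subunit were mixed. The brightest set of RBCS-C gave 28788 to 33062. Another set of that gene, Os.49262.1.A1_x_at, and the brightest set of RBCS1 stayed below 100 on all arrays. The endosperm markers did not exceed 1635, the meristem marker OSH1 stayed below 100 and the floral organ gene MADS1 did not exceed 296. The root marker RCC3 was not matched and not analysed here.

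Of the 194 probe sets, 144 were paired with 1 gene, 12 with several genes and 38 with none. The 144 stood for 121 genes, 18 of which had 2 or more probe sets in the group, up to 4 for Rubisco activase. Members came more often from probe sets that can match several transcripts. The ending _a_at was carried by 20.1% of members and 2.46% of all probe sets, _s_at by 16.5% and 4.92%, and _x_at by 25.3% and 12.5%, while the plain ending _at was carried by 38.1% of members and 80.1% of all. The OsAffx series of the array supplied 9.79% of members against 44.6% of all probe sets. The member genes lay on all 12 chromosomes, with 20 on chromosome 3 and 1 on chromosome 10, and 1 was a plastid gene, atpI. Roles could be given to 38 of the genes with 48 probe sets. The study's own annotation rows used here named none of the members.

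Between genotypes the bright transcripts differed little. No member was called in limma over the 4 arrays with day length as a term (Benjamini-Hochberg adjusted p under 0.05), against 2.07% of the 28133 probe sets tested. The lowest adjusted p of a member was 0.285, and 5 members had an unadjusted p under 0.05, which is 2.58% of members against 11.7% of all tested. The median absolute log2 fold of hd1–3 over wild type was 0.08 for members under SD condition and 0.06 under LD condition, against 0.28 and 0.25 over all probe sets tested. Probe sets just dimmer, with a mean signal of 10000 to 20000, had 0.17 and 0.12, and those of 5000 to 10000 had 0.17 and 0.14. No member exceeded 1.5-fold between genotypes under either day length, against 24% and 21.5% of all tested. At a mean signal of 10000 to 20000, only 4.33% and 3.15% exceeded it under SD and LD conditions. At 5000 to 10000, 6.53% and 6.12% did. The threshold on all 4 arrays also favours steady probe sets. Of the 63 probe sets that reached a mean of 20000 without meeting the threshold on every array, 3 exceeded 1.5-fold between genotypes under SD condition and 0 under LD condition.

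**Figure D1:**
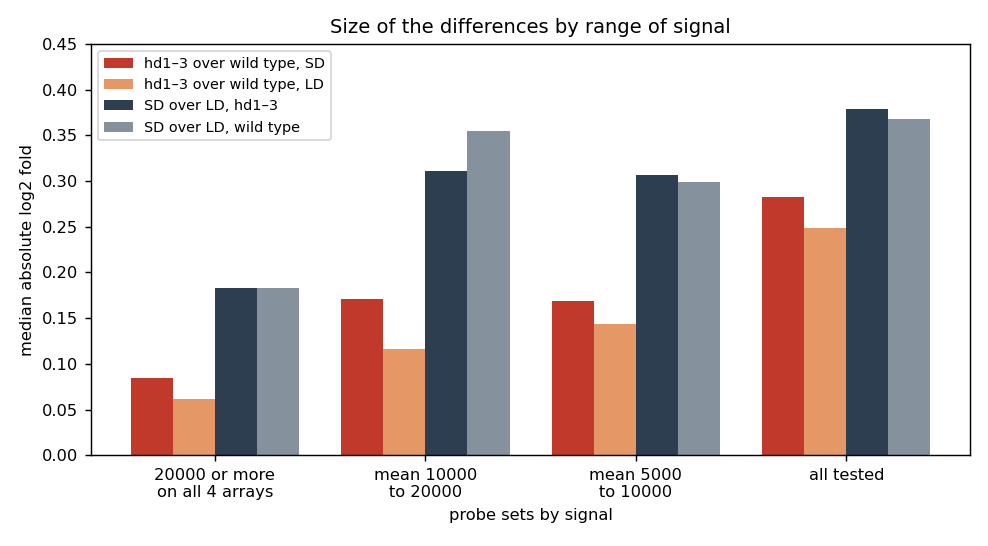
Median absolute log2 fold (vertical axis) of the bright probe sets, of 2 dimmer ranges of mean signal and of all 28133 probe sets tested, for hd1–3 over wild type under each day length and for SD over LD in each genotype. The bars of the bright probe sets stand at 0.08 and 0.06 for genotype and at 0.18 and 0.18 for day length, below those of the other ranges.

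The small genotype folds leaned upward in hd1–3 on the deposited scale, with medians of 0.06 under SD condition and 0.03 under LD condition, and with 0.00 and 0.00 after quantile normalization. Of the members, 99 were higher in hd1–3 under both day lengths, 15 were lower under both and 80 went opposite ways. The phage cre control transcripts, which are spiked in before hybridization and carry no plant message, had median log2 folds of 0.06 and 0.15 over 6 probe sets in the same comparisons. The ratio of the 3′ to the 5′ control set of GAPDH was 4.16 and 4.25 in hd1–3 under SD and LD conditions, against 1.64 and 1.48 in wild type, whereas for actin it was 4.79 and 4.87 in hd1–3 against 5.02 and 4.55 in wild type. Of the 3 floral organ markers, MADS1, a floral homeotic gene, was called higher in hd1–3 (296 and 237 in hd1–3, against 71.7 and 21.88 in wild type, under SD and LD conditions), MADS58 was not called, and the signals of MADS3 were too low to be tested. The summed signal of these markers was 408 and 329 in hd1–3, against 141 and 63.3 in wild type. The part of the control folds, of the GAPDH ratio or of flower messages in the member folds was not tested.

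Across day lengths the members moved more, and on the deposited scale mostly one way. In limma with genotype as a term, 23 members were called and all 23 had the higher signal under SD condition, which is 11.9% of members against 13.6% of all probe sets tested. At an unadjusted p under 0.05 were 75 members, or 38.7%, against 27% of all tested. Of all tested, 6.53% were called higher and 7.09% lower under SD condition. The 23 calls had log2 differences of SD over LD between 0.32 and 0.79. The median log2 fold of members was 0.18 in hd1–3 and 0.17 in wild type, against -0.04 and -0.06 over all tested. This lean was not particular to the members. Probe sets with a mean signal of 10000 to 20000 had medians of 0.22 and 0.28. Those of 5000 to 10000 had 0.11 and 0.12. The 63 probe sets with a mean of 20000 or more that were no members had 0.28 and 0.21. Of the members, 160 were higher under SD condition in both genotypes, 11 were lower in both and 23 went opposite ways.

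The counts of calls and the size of this lean changed with the scaling of the arrays. Quantile normalization gives every array the same distribution of signals, so the median fold of probe sets that rank at the top on each array lies near 0 by its construction, and that median does not bear on the lean itself. After it 3 members were called higher and 3 lower under SD condition, and the median log2 folds were -0.01 and 0.00. Median scaling divided each array by the median of its probe sets with 100 or more on all 4 arrays, not of the 194 members. With it 60 members were called, all higher under SD condition, and the medians were 0.28 and 0.25. Relative to the median of all probe sets tested, the member median lay 0.22 higher under SD condition in each genotype on the deposited scale and also with median scaling, which moves all probe sets of an array alike, and -0.01 away after quantile normalization. The 6 cre control sets had median log2 folds of SD over LD of 0.07 in hd1–3 and 0.15 in wild type, with ranges of -0.06 to 0.25 and 0.08 to 0.32, and their part in the member shift was not tested. With any 1 array left out, 1 or 2 members were called, in fits that also lacked the genotype term. Without that term but with all 4 arrays there were 5 calls.

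**Figure D2:**
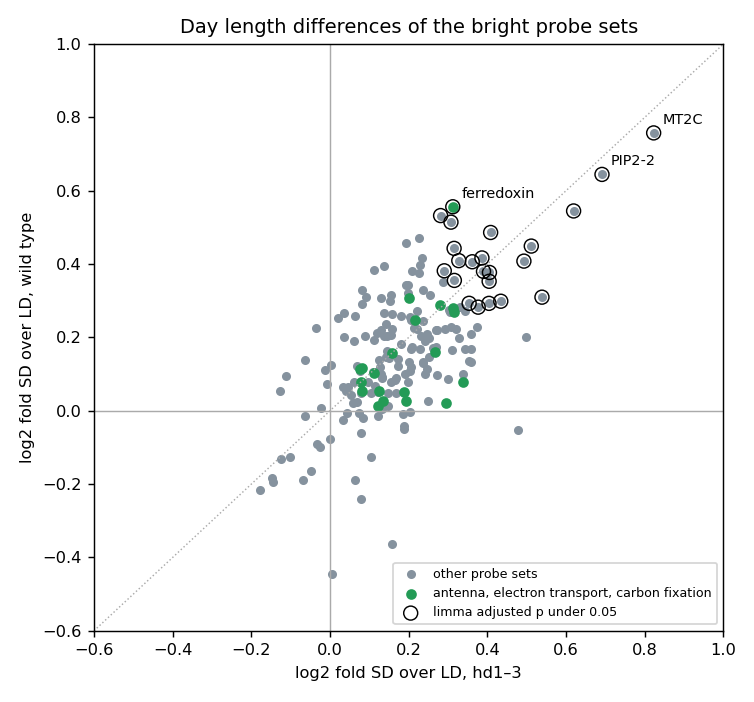
Log2 fold of SD over LD in hd1–3 (horizontal axis) and in wild type (vertical axis) for the 194 bright probe sets, with the photosynthesis lists in green and the 23 limma calls ringed. MT2C lies farthest out at 0.82 and 0.76, and most points lie above 0 on both axes, a lean that quantile normalization brings near 0 by its construction.

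The size of the day length differences of the members was still modest, but the threshold on all 4 arrays favours steady probe sets. Above 1.5-fold were 3 members in hd1–3 and 2 in wild type, against 33.6% and 32.6% of all tested. No member reached 2-fold, against 15.4% and 15.2%. Of the 63 probe sets with a mean of 20000 or more that were no members, 13 in hd1–3 and 12 in wild type exceeded 1.5-fold. Above 2-fold were 1 of them in hd1–3 and 4 in wild type. The modest size thus holds only for the members as chosen. Over the 4 arrays, the highest signal of a member was a median of 1.20 times its lowest. This ratio was below 1.3 for 157 members, below 1.1 for 21 and above 1.5 for 5. The steadiest was the probe set of GAPC1, a cytosolic glyceraldehyde-3-phosphate dehydrogenase of glycolysis, with signals of 30202 and 30133 in hd1–3 and wild type under SD condition and of 28792 and 29637 in hd1–3 and wild type under LD condition, a ratio of 1.05. Over the members, log2 signals of the pair of arrays under LD condition had a Pearson correlation of 0.954 and those under SD condition of 0.923, while the SD and LD arrays of a genotype had 0.875 in hd1–3 and 0.817 in wild type. These are descriptions over 194 probe sets of the same arrays, some of which share a gene.

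Among the antenna proteins, all 3 measured genes of the list were members. The list held only 4 genes, matched by symbol or synonym, so this is no share of all antenna genes. For CAB2R, which encodes a chlorophyll a/b-binding protein, the probe set Os.7941.2.S1_a_at gave 49297 and 48854 in hd1–3 and wild type under SD condition and 46676 and 46288 in hd1–3 and wild type under LD condition. These 4 signals stayed within a ratio of 1.07. Its other member, Os.7941.2.S1_s_at, gave 41980.1 in hd1–3 and 39504 in wild type on the SD arrays, and 38502 in hd1–3 and 38091 in wild type on the LD arrays. RCABP89, another chlorophyll a/b-binding gene, gave 42679 in hd1–3 and 37521 in wild type under SD condition and 39228 in hd1–3 and 37208 in wild type under LD condition, and RCABP69 gave 31101 in hd1–3 and 30960.3 in wild type on the SD arrays and 29399.8 in hd1–3 and 28570.4 in wild type on the LD arrays. None of the 4 antenna probe sets was called for genotype or for day length, and the median log2 difference of SD over LD was 0.08, against -0.05 over all tested. After quantile normalization, which centres the brightest probe sets near 0, the antenna median was -0.10, and no antenna probe set was called under either other scaling.

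**Figure D3:**
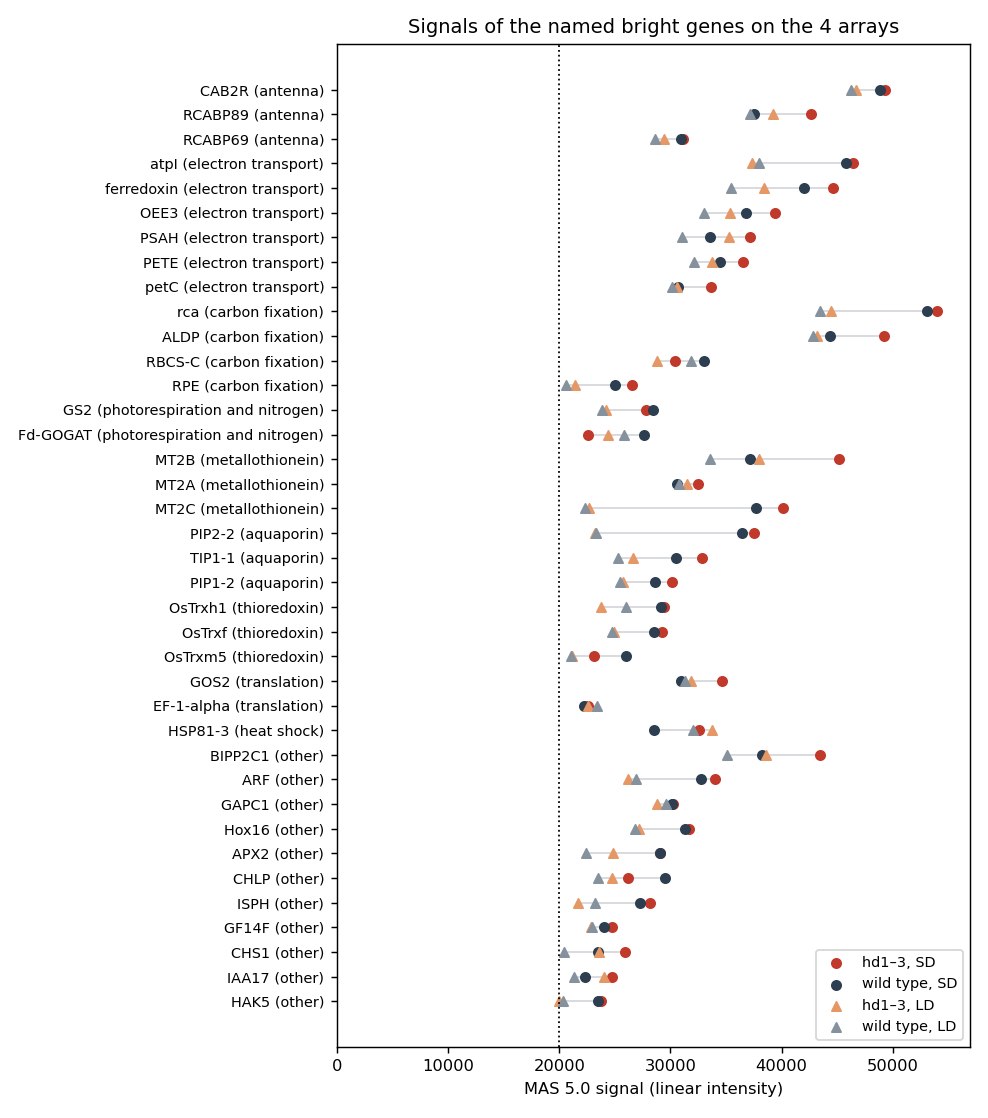
MAS 5.0 signals (horizontal axis, linear) of the genes with a role on the 4 arrays, 1 probe set per gene, the brightest, with genes ordered by role. Circles are SD and triangles are LD arrays, red tones hd1–3 and grey tones wild type, and the dotted line marks 20000. The 4 marks of GAPC1 lie between 28792 and 30202, while the circles and triangles of MT2C and PIP2-2 lie apart.

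Of the electron transport genes, 6 of 10 measured were members. The plastid gene atpI, for a membrane subunit of the chloroplast ATP synthase, had 46464 and 45789 in hd1–3 and wild type under SD condition and 37358 and 37992 in hd1–3 and wild type under LD condition. Its log2 difference of SD over LD was 0.29 (adjusted p = 0.0580 in limma), just short of a call. OEE3, the PsbQ protein of the oxygen-evolving complex, had 39439.8 in hd1–3 and 36791 in wild type on the SD arrays, and 35377 in hd1–3 and 33018 in wild type on the LD arrays. PETE, plastocyanin, had 36494 in hd1–3 and 34441 in wild type on the SD arrays, and 33756 in hd1–3 and 32091 in wild type on the LD arrays. PSAH, a photosystem I subunit, and petC, the Rieske protein of the cytochrome b6f complex, had log2 differences of SD over LD of 0.09 and 0.08 and were not called.

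A ferredoxin gene, which passes electrons from photosystem I to reductive metabolism, had 3 members. Os.12393.2.S1_x_at gave 44614 and 42048 in hd1–3 and wild type under SD condition and 38420.3 and 35428 in hd1–3 and wild type under LD condition, a log2 difference of SD over LD of 0.23 that was not called (adjusted p = 0.124). Os.12393.2.S1_at gave 0.25, also not called. Os.12393.2.S1_s_at gave 31559 and 34095 in hd1–3 and wild type under SD condition and 25421 and 23188 in hd1–3 and wild type under LD condition, and its difference of 0.43 (SE 0.10, 4 arrays, limma adjusted p = 0.0204) was called. Over the whole list, 3 of 15 tested probe sets were called higher under SD condition (1 after quantile normalization and 6 with median scaling), 0 lower, and 0 for genotype, against 6.53% higher and 7.09% lower among all tested. The 3 calls came from 2 genes, ferredoxin and PSAG, a photosystem I subunit.

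Of the carbon fixation genes, 4 of 8 measured were members. Rubisco activase, rca, had 4 of them. Os.11573.2.A2_a_at gave 54000.5 and 53057 in hd1–3 and wild type under SD condition and 44456 and 43439.7 in hd1–3 and wild type under LD condition, with a log2 difference of SD over LD of 0.28 (SE 0.09, limma adjusted p = 0.0581). The other 3 gave 0.11 to 0.21 and were not called. With median scaling Os.11573.2.A2_a_at was called at 0.38, and after quantile normalization it had 0.12 and was not. ALDP, a plastid fructose-bisphosphate aldolase, had 49190.1 in hd1–3 and 44342 in wild type on the SD arrays, and 43163 in hd1–3 and 42823.5 in wild type on the LD arrays, by Os.18335.3.S1_x_at. RPE, ribulose-phosphate epimerase, had 26587 and 25038 in hd1–3 and wild type under SD condition and 21402 and 20605 in hd1–3 and wild type under LD condition, and its difference of 0.30 was not called.

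RBCS-C, a small subunit of Rubisco, gave 30447 in hd1–3 and 33062 in wild type under SD condition and 28788 in hd1–3 and 31853 in wild type under LD condition. Its signal was thus the lower in hd1–3 under each day length, by -0.13 on the log2 scale (limma adjusted p = 0.644), which was not a call. Dimmer probe sets of the gene did not share that direction, with 0.20 for Os.39363.1.A1_x_at and 0.08 for Os.39038.1.A1_at, neither called. A further 2 members, Os.28133.1.S1_x_at and Os.28218.1.S1_at, are paired with the same 3 genes in the platform table and are not named by gene here. They had the largest absolute genotype differences among the members, with opposite signs. Os.28133.1.S1_x_at gave 36012 and 37636 in hd1–3, against 46395 and 42171 in wild type, under SD and LD conditions, a difference of -0.26 (SE 0.09, limma adjusted p = 0.285). Os.28218.1.S1_at gave 32102 and 29368 in hd1–3, against 27684 and 23782 in wild type, a difference of 0.26 (SE 0.09, limma adjusted p = 0.301). In each case the hd1–3 and wild type signals did not overlap, in sets picked for the size of this difference, and neither difference was called. A member of the same probe set cluster as the first, Os.28133.1.S1_s_at, went the other way, at 0.18. It gave 46977 and 43034 in hd1–3, against 41453 and 38175 in wild type, under SD and LD conditions. Os.28218.1.S1_x_at, of the cluster of the second, gave 0.16, and neither of these members was called. Among the 10 largest absolute genotype differences were also LOC4349605 with 0.22, the GOS2 set Os.7945.1.S1_s_at with 0.19, LOC4343604, by Os.28216.3.S1_x_at, with 0.19 and LOC4324705 with 0.19, none of them called. Over the whole carbon fixation list, 6 of 17 tested probe sets were called higher under SD condition (3 after quantile normalization and 10 with median scaling) and 0 lower, against 6.53% and 7.09% of all tested. These 6 belonged to 3 genes with 2 probe sets each, RBCS-C and the fructose-bisphosphatase genes CFBP1 and FBPase, and none of the 6 was a member probe set.

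**Figure D4:**
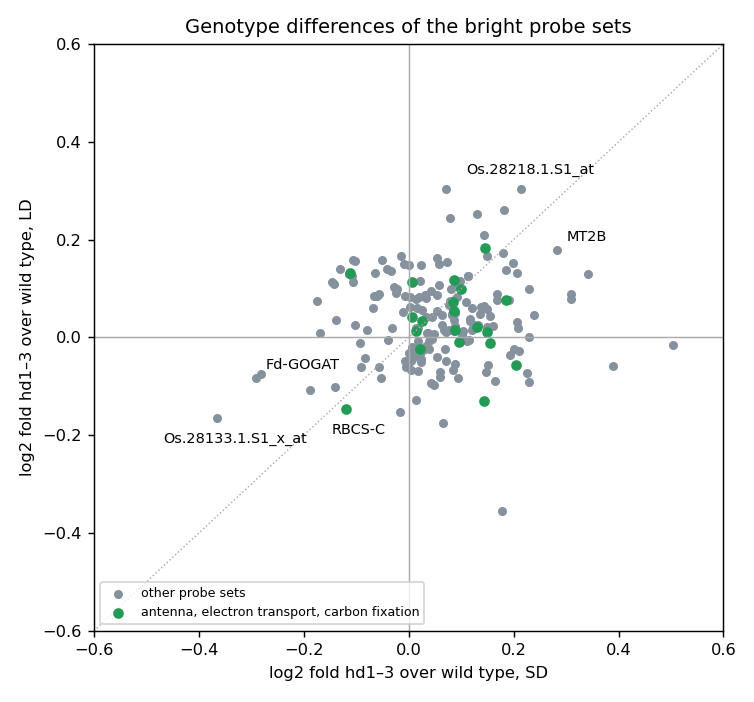
Log2 fold of hd1–3 over wild type under SD condition (horizontal axis) and LD condition (vertical axis) for the 194 bright probe sets, photosynthesis lists in green. No point was called in limma, and the largest absolute value is 0.50, with Os.28133.1.S1_x_at and Os.28218.1.S1_at on opposite sides of 0.

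Photorespiration and nitrogen assimilation had 2 member genes of 9 measured. GS2, the chloroplast glutamine synthetase, gave 27846 and 28454 in hd1–3 and wild type under SD condition and 24180.2 and 23854 in hd1–3 and wild type under LD condition. Fd-GOGAT, ferredoxin-dependent glutamate synthase, gave 22578 and 24394 in hd1–3, against 27613 and 25835 in wild type, under SD and LD conditions. Its hd1–3 signals were both below the wild type signals, by -0.19 on the log2 scale, which was not called (limma adjusted p = 0.535). Over the list, 4 of 22 tested probe sets were called higher and 4 lower under SD condition (1 and 5 after quantile normalization, 5 and 4 with median scaling), and 1 was called higher in hd1–3. All tested had 6.53% higher and 7.09% lower, and 3 of the 4 higher calls were sets of GLO5 and 3 of the 4 lower calls were sets of CAT-A. CAT-A, a catalase, which breaks down hydrogen peroxide, reached a mean of 20000 but was no member. Its probe set Os.9172.2.S1_x_at gave 15709 and 11088 in hd1–3 and wild type under SD condition and 28868 and 25294 in hd1–3 and wild type under LD condition, and it fell under SD condition by 1.03 on the log2 scale (limma adjusted p = 0.000506). It was thus a bright transcript left out by the threshold because it was dimmer under SD condition.

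Metallothioneins gave the largest day length difference among the members. MT2C had 40094 and 37714 in hd1–3 and wild type under SD condition, and 22669.6 and 22308 in hd1–3 and wild type under LD condition. The SD signals lay above the LD signals in each genotype, and the log2 difference was 0.79 (SE 0.09, 4 arrays, limma adjusted p = 0.000756). It was called under each of the 10 alternatives run for it, with the difference between 0.62 and 0.88. The other 4 MT2C probe sets were dimmer on at least 1 array and had differences of 0.84 to 1.41, all called.

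MT2B, another metallothionein gene, had 2 members. Os.12410.1.S1_a_at gave 45179 and 37945 in hd1–3, against 37124 and 33526.5 in wild type, under SD and LD conditions, a genotype difference of 0.23 (SE 0.09, limma adjusted p = 0.347) that was not called. Os.12410.1.S1_x_at gave 0.20 in the same direction, and Os.12410.3.S1_s_at, paired with no gene, gave 0.24. A dimmer MT2B probe set, Os.12410.3.S1_x_at, missed the threshold in hd1–3 and went the other way, with 12068 and 9291 in hd1–3, against 25160 and 24297 in wild type. It was called lower in hd1–3 by -1.22 on the log2 scale (limma adjusted p = 0.000440), so the probe sets of this gene disagreed. The last one, Os.12410.2.S1_at, stayed below 100 on all arrays and was not tested. MT2A differed least, with 32499 and 30599.7 in hd1–3 and wild type under SD condition and 31532 and 30759 in hd1–3 and wild type under LD condition. Of the 7 measured genes, these 3 were members, and 7 of 15 tested probe sets were called higher under SD condition (7 after quantile normalization and 8 with median scaling) and 0 lower, against 6.53% and 7.09% of all tested. MT2C alone supplied 5 of these 7 calls, and MT1B and MT4C 1 each.

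**Figure D5:**
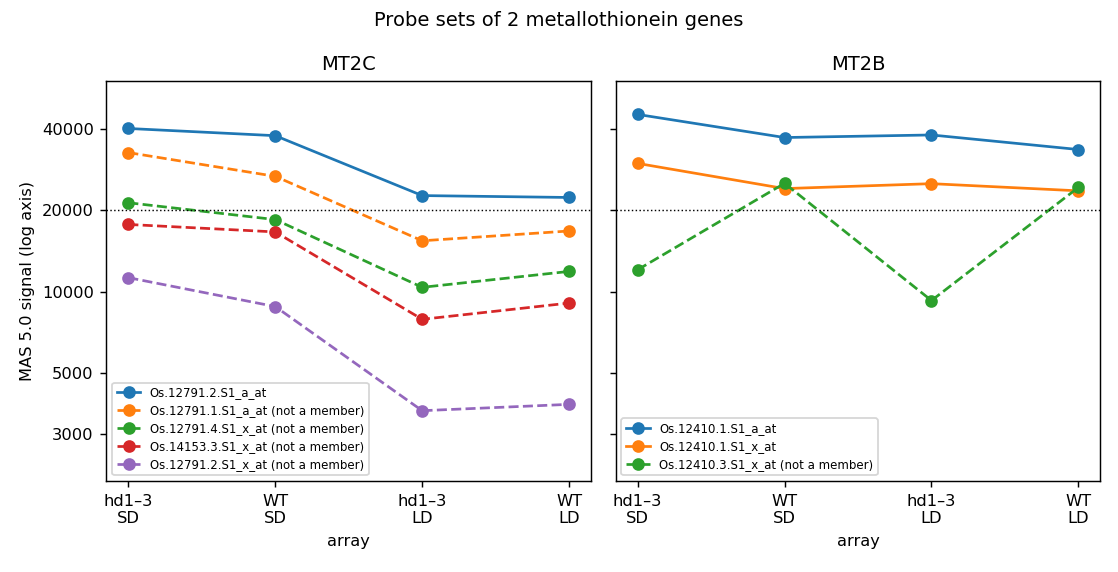
Signals (vertical axis, log scale) of the MT2C and MT2B probe sets with 1000 or more on all arrays, on the 4 arrays, with members as solid lines and probe sets that missed 20000 on 1 or more arrays as dashed lines. All 5 MT2C lines stand higher on the SD arrays, whereas for MT2B Os.12410.3.S1_x_at is low in hd1–3 and the 2 members are not.

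Aquaporins were members for 3 of 25 measured genes. PIP2-2, of the plasma membrane, had 37484 and 36486 in hd1–3 and wild type under SD condition and 23214 and 23343 in hd1–3 and wild type under LD condition. Its log2 difference of SD over LD was 0.67 (SE 0.09, 4 arrays, limma adjusted p = 0.00167), and it stayed at 0.65 to 0.69 with each array left out in turn, in fits without a genotype term, where 3 of the 4 missed a call (limma adjusted p = 0.0532 to 0.0608). The other PIP2-2 probe set, Os.6632.1.S1_at, did not share this difference, with 394 and 4974 in hd1–3 and wild type under SD condition and 1485 and 1294 in hd1–3 and wild type under LD condition, and with 0.02 for SD over LD, not called. TIP1-1, of the vacuolar membrane, had 32849 and 30465.5 in hd1–3 and wild type under SD condition and 26592 and 25289.8 in hd1–3 and wild type under LD condition, and PIP1-2 had 30143 in hd1–3 and 28597 in wild type on the SD arrays and 25731 in hd1–3 and 25454 in wild type on the LD arrays. Neither was called, at 0.29 and 0.20. The related PIP1-1 (LOC4330248) missed membership by 1 array, with 34174 and 31155 in hd1–3 and wild type under SD condition and 20134 and 19798 in hd1–3 and wild type under LD condition, and was called at 0.71 (adjusted p = 0.00148). Over the list, 8 of 27 tested probe sets were called higher and 3 lower under SD condition (7 and 4 after quantile normalization, 10 and 2 with median scaling), against 6.53% and 7.09% of all tested.

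Thioredoxins, small proteins that reduce disulfide bonds, were members for 3 of 14 measured genes. OsTrxf, of the f type that activates Calvin cycle enzymes in the light, gave 29224 and 28526 in hd1–3 and wild type under SD condition and 24914 and 24762 in hd1–3 and wild type under LD condition. OsTrxh1 and the m-type OsTrxm5 had log2 differences of SD over LD of 0.24 and 0.22, and OsTrxf had 0.22, and none was called. In the list, 4 of 17 tested probe sets were called higher under SD condition (3 after quantile normalization and 4 with median scaling) and 0 lower, against 6.53% and 7.09% of all tested.

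Translation was represented by 2 of 33 measured genes. EF-1-alpha, which brings aminoacyl-tRNA to the ribosome, gave 22591 and 22222 in hd1–3 and wild type under SD condition and 22605 and 23424 in hd1–3 and wild type under LD condition by Os.12625.6.S1_x_at, a ratio of 1.05. A further 3 members of the same probe set cluster are paired with 4 genes each and had log2 differences of SD over LD of -0.20, -0.17 and -0.13, not called. GOS2, the eIF1 family gene whose promoter is used for strong expression in cereals, gave 34636 and 30995 in hd1–3 and wild type under SD condition and 31834 and 31317 in hd1–3 and wild type under LD condition by Os.7945.1.S1_at. In the list, 5 of 53 tested probe sets were called lower (4 after quantile normalization and 1 with median scaling) and 0 higher under SD condition, against 7.09% and 6.53% of all tested. HSP81-3, a cytosolic HSP90 chaperone, was the only member of the heat shock list among 23 measured genes. It gave 32597 and 28537 in hd1–3 and wild type under SD condition and 33730.4 and 31999 in hd1–3 and wild type under LD condition. Its genotype difference was 0.13, against -0.31 and -0.16 in dimmer sets of the gene, none called. Over that list, 8 of 27 tested probe sets were called higher and 1 lower under SD condition, against 6.53% and 7.09% of all tested. Of 28 tested, these were 8 and 2 after quantile normalization and 8 and 1 with median scaling. The 8 higher calls came from 6 genes. Of the 18 ubiquitin, actin and tubulin genes measured, 0 were members. The actin gene ACT7 missed by a single array, with 27990.0 in hd1–3 and 19860 in wild type under SD condition.

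Among the 10 members with the highest mean signal were 4 with no function in the tables, LOC4324479, OsAffx.26050.2.S2_x_at, Os.7992.1.S1_a_at and LOC4344899. LOC4324479 was the brightest of these, with 48205 and 46122 in hd1–3 and wild type under SD condition and 45087 and 43662 in hd1–3 and wild type under LD condition. Their log2 differences of SD over LD were 0.09, 0.14, 0.19 and 0.07, in that order, and none was called. The other named members serve diverse functions. BIPP2C1, a protein phosphatase 2C, gave 43487 and 38225 in hd1–3 and wild type under SD condition and 38599 and 35104 in hd1–3 and wild type under LD condition. APX2, an ascorbate peroxidase that removes hydrogen peroxide, gave 29058 and 29062 in hd1–3 and wild type under SD condition and 24849.8 and 22422 in hd1–3 and wild type under LD condition, a log2 difference of SD over LD of 0.30 that was not called (limma adjusted p = 0.0741). CHLP, the geranylgeranyl reductase that makes the phytol tail of chlorophyll, and ISPH, the last enzyme of the plastid isoprenoid pathway, had differences of 0.21 and 0.30 and were not called either. GF14F, a 14-3-3 protein, CHS1, chalcone synthase of flavonoid synthesis, the auxin response repressor gene IAA17 and the HD-Zip gene Hox16 had 0.09, 0.17, 0.06 and 0.22. HAK5, listed as a potassium transporter, lay just inside the threshold with 20012 as its lowest signal. Of the members of this group ARF alone was called, at 0.33 (limma adjusted p = 0.0463), and after quantile normalization it was not, at 0.13. Dimmer sets that were no members were called for BIPP2C1 at 0.82, for APX2 at 0.40 (Os.12693.5.S1_x_at) and for HAK5 at -1.83. That HAK5 set, Os.17158.1.S1_at, had signals of only 50.1 to 371. The other dimmer sets of the group were not called for day length.

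The 23 day length calls included 4 genes with a role, MT2C, PIP2-2, ferredoxin and ARF, and 6 probe sets with no single gene. LOC4342247 followed MT2C and PIP2-2, with 35525 and 30780.1 in hd1–3 and wild type under SD condition and 23129 and 21100.1 in hd1–3 and wild type under LD condition, a difference of 0.58 (SE 0.09, limma adjusted p = 0.00365). LOC4337447 gave 0.48, the probe set OsAffx.32317.1.A1_at and LOC4349605 0.45 each, LOC4341496 0.42, and LOC4352083 and LOC4334048 0.41 each. The tables annotate no function for these genes. With each array left out in turn, and no genotype term, the difference was 0.75 to 0.83 for MT2C, 0.46 to 0.50 for LOC4337447, 0.48 to 0.69 for LOC4342247 and 0.32 to 0.58 for LOC4349605. Of the 10 largest differences MT2C alone was called under every alternative run for it.

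The largest differences in the other direction were not called. LOC4324683 gave 28552 and 21796 in hd1–3 and wild type under SD condition and 28471 and 29669 in hd1–3 and wild type under LD condition, so only the wild type array under SD condition stood low. Its log2 difference of SD over LD was -0.22 (limma adjusted p = 0.275). Among the members paired with no single gene, Os.12691.1.A1_a_at gave 28428 and 20049 in hd1–3 and wild type under SD condition and 25497 and 25777 in hd1–3 and wild type under LD condition, the largest genotype fold of a member within a day length at 0.50 on the log2 scale. Under LD condition the same fold was -0.02.

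Other probe sets of the member genes were compared with the members. The threshold caps the differences of members but not those of the other sets, which missed it on at least 1 array, so larger differences in them follow in part from the rule and are a description. For 33 member genes the array held 42 further probe sets with 1000 or more on all arrays, a comparison chosen after the values were seen. The absolute day length difference was larger in 35 of the 42 than in the brightest member of the gene, and the genotype difference was larger in 29. The median absolute difference was 0.39 for day length and 0.11 for genotype in the dimmer probe sets, against 0.19 and 0.08 in the members. Of the 42, 14 were called higher and 5 lower under SD condition (9 and 6 after quantile normalization, 20 and 4 with median scaling), against 6.53% and 7.09% of all tested, and 1 was called for genotype, the MT2B set. MT2C supplied 4 of the 14 and LOC4352868 3 of the 5. For RBCS-C, Os.39038.1.A1_at and Os.39363.1.A1_x_at gave 0.64 and 0.52 for SD over LD, both called (limma adjusted p = 0.0126 and 0.0156), against 0.07 in the member. For BIPP2C1 a set with a mean of 2961 gave 0.82, against 0.15, and for TIP1-1 a set with a mean of 19325 gave 0.64, against 0.29. Whether the probe sets of a gene read the same transcripts was not tested.

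The threshold fell within a continuous run of signals. Just inside it lay HAK5 with a lowest signal of 20012, Os.12691.1.A1_a_at with 20049, LOC4352606 with 20090.2, LOC4327819 with 20268 and LOC4333019, by Os.12813.1.S1_a_at, with 20275. Just outside lay Os.12388.1.S1_x_at with 19980.5 and Os.12813.4.S1_x_at with 19921, whose genes LOC4349876 and LOC4333019 are members by other probe sets, LOC4331408 with 19899.7, Os.12303.1.S1_at with 19880.5 and ACT7 with 19860. Farther below on some arrays were bright but variable probe sets such as LOC107277382, with 28232 and 27999 in hd1–3 and wild type under SD condition and 16060.0 and 12604 in hd1–3 and wild type under LD condition, which was called higher under SD condition at 0.98 (limma adjusted p = 0.000660).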

How the data were processed

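Total RNA of leaves was measured on 4 Affymetrix Rice Genome Arrays. The authors ran the scans through MAS 5.0, whose version and scaling target are not stated in these sources. The deposited values are linear intensities, 1 for each probe set and array. No further normalization was applied. The 187 control and reporter probe sets were left out of the members and tests. Members and gene lists were chosen with earlier results of these data known.

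Genotype and day length were tested with limma 3.58.1 in R 4.3.3 (lmFit, eBayes with trend) on log2(signal + 1), with both factors in the model, over the 28133 probe sets that reached 100 on any array, with 1 residual degree of freedom and Benjamini-Hochberg adjustment. The fit assumes that a difference is the same at the other level of the other factor. The variance of a probe set was drawn toward a trend with signal over all probe sets, weighted as 8.29 degrees of freedom against 1 of its own. That 1 is the departure from this assumption, so the p-values measure no spread between replicates. The number of arrays, 4, limits the precision. Folds within a day length or genotype were not tested. On simulated arrays, 47% of probe sets with a log2 genotype change of 1 and 76% of those with 2 were called, larger changes than any member showed. The changed sets were drawn at random over all signal levels, with more noise set for dim ones. These shares therefore do not tell how often a change in the members would be called.

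Gene names came from the platform table, and all 144 single-gene members matched the RefSeq gene table (assembly ASM3414082v1). It holds no descriptions, so function lists were matched to its symbols and synonyms, and GS2, Fd-GOGAT, GOS2 and other names were added by hand. Genes without such a name are in no list, so a share of a list is not a share of all genes with that role. Named members are the 10 with the highest mean signal, the 10 with the largest genotype and day length differences, the brightest of each list and those next to the threshold. Others were chosen after their values were seen. As alternatives, 32 was added instead of 1, or quantile normalization or median scaling was used. The others were filters, other thresholds, 1 probe set per gene, no _x_at or _s_at sets, no term for the other factor, and each array left out. Python 3.11.15 with pandas 2.3.3, numpy 2.4.6 and matplotlib 3.10.9 did the rest.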

Additional observations from a re-analysis of the deposited data

Results flagged for a closer look

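For 13 members the genotype fold went opposite ways under the 2 day lengths, or the day length fold in the 2 genotypes, by more than 0.1 on the log2 scale each way. With 1 array per group these differences were not tested, and all lie within the bounds that the threshold sets. For 11 of them the fold was that of hd1–3 over wild type, and the value under SD condition minus that under LD condition is given. LOC4331153 had the largest, 0.53, with 0.18 under SD condition and -0.36 under LD condition. A Rubisco activase probe set, Os.11573.5.A1_x_at, had 0.27, with 0.14 and -0.13. The other 9 were negative, with the lower fold under SD condition. They were Os.46135.1.S1_s_at (-0.27), LOC4324933 (-0.27), Os.10139.1.S1_s_at (-0.26), LOC4333610 (-0.26), LOC4334048 (-0.25), LOC4351319 (-0.24), the ferredoxin set Os.12393.2.S1_s_at (-0.24), LOC4339204 (-0.23) and LOC4348979 (-0.22). For the other 2 the fold was that of SD over LD, and the value in hd1–3 minus that in wild type was 0.52 for Os.12691.1.A1_a_at and 0.23 for the GOS2 set Os.7945.1.S1_s_at.

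Control probe sets, which the rule leaves out, also passed 20000 on all 4 arrays. The 3 ubiquitin sets had mean signals of 42483 (5′ set), 40497 (middle set) and 27939.7 (3′ set), with 46822 and 40502 in hd1–3 and wild type under SD condition and 40358 and 42251 in hd1–3 and wild type under LD condition for the 5′ set. The 5 cre phage sets had means of 31967, 30535, 30131.5, 27358 and 23829.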

How the results depend on the processing

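The count of members called for genotype was 0 under all 11 alternatives, with 0 to 7 at an unadjusted p under 0.05. The 23 day length calls became 32 with 32 added and 22 without _x_at and _s_at sets, but 43 with a filter at 500. They became 60 with median scaling, 6 with quantile normalization (3 higher and 3 lower under SD condition), 5 without a genotype term and 3 without a filter. In the fits with each array left out the other factor was dropped, and the lone array was assumed to vary like the other group. The cause of these changes was not tested. The members numbered 313 at a threshold of 15000, 63 at 30000 and 113 without _x_at and _s_at sets, and 171 to 257 under the other alternatives. Members above 1.5-fold between day lengths in hd1–3, 3 as reported, were 1 after quantile normalization and 7 with median scaling. In wild type, 2 as reported, they were 6 with that scaling and 1 without _x_at and _s_at sets. The genotype difference of LOC4349605, 0.22, reversed to -0.022 without the wild type array under LD condition, the lowest of -0.022 to 0.46 with each array left out. The genotype median was 0.06 to 0.10 in absolute log2 under SD condition and 0.05 to 0.07 under LD condition over the alternatives. Leaving out an array removes the folds it belongs to, so these were not recomputed. No paired analysis was possible because each group has 1 array and the labels carry no replicate numbers, so the only block in the fit was the other factor. The table holds no background or detection values, so signal over background is unknown.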
